A study of Mus musculus with 9 samples.

Results

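The genes described here are 10 members of the NF-kB system and the acute cytokine response in the retinal pigment epithelium (RPE), the pigmented layer that supports the photoreceptors. They were taken by symbol from a table of 40202 genes, and all 10 were found and passed the filter on low counts. They are the transcription factor genes Nfkb1, Nfkb2, Rela and Relb, the inhibitor genes Nfkbia and Tnfaip3, the cytokine genes Tnf, Il1b and Il18, and Acod1. RNA was sequenced from the RPE of wild-type mice in 9 libraries. The treated mice were 24 months old and had been given Vutiglabridin, a synthetic relative of the liquorice compound glabridin, over 6 months (labelled Vuti, n = 3). The aged controls were 24 months old (labelled Old control, n = 3), and the young controls were 9 months old (labelled Young control, n = 3). The labels give neither sex, strain nor dose, and do not say that libraries came from separate animals, so the spread that p-values are set against may be partly technical. Treated and young control mice differed in both age and treatment.

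NF-kB proteins are dimers of Rel family members that are held in the cytoplasm by IkB inhibitors. Receptors for tumour necrosis factor, interleukin-1 and microbial products activate kinases that mark the inhibitor for destruction, and the freed dimer enters the nucleus. Its targets include its own inhibitors, Nfkbia and Tnfaip3, which limit the response, and cytokine genes such as Tnf and Il1b. In the eye, this response is best known from microglia, macrophages and RPE cells exposed to inflammatory signals.

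Libraries held between 44196290 and 56797891 counts. Levels below are in CPM, counts scaled to a common library size after normalization by trimmed mean of M values, as mean ± SD over 3 libraries, and log2 fold changes are given ± SE. A gene was called changed at an adjusted p under 0.05 in edgeR's quasi-likelihood test over 25273 genes. All 10 RPE markers had a group mean of at least 1 CPM in every group. Their summed level was 15270, 9455 and 10090 CPM in the treated libraries, 12730 to 15370 CPM in aged controls and 16700 to 18840 CPM in young controls. Markers of other cell types were present as well, so values belong to the dissected sample. In such bulk samples, a change in the number of cells of a type and a change in RNA per cell cannot be told apart. Treated libraries differed in other markers. Rod markers summed to 178, 460 and 597 CPM in treated replicates 1, 2 and 3, against 126 to 275 CPM in the controls. Treated replicate 2 stood apart in blood and epithelium. Its haemoglobin transcripts summed to 5131 CPM, where treated replicates 1 and 3 had 91.1 and 644 CPM and the controls 206 to 339 CPM. Its stratified epithelium markers summed to 219 CPM, where those replicates had 62.4 and 71.7 CPM and the controls 46.5 to 61.2 CPM. Young control 1 had counts in the fewest genes, 28873, against 30906 to 32523 in the others.

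The promoter windows of the 8 genes found in the RefSeq table, all but Nfkb1 and Relb, are shown so that those with and without an NF-kB motif can be compared, with 1 window a gene. Each runs from 250 bases before to 50 bases after the RefSeq start on build GRCm38.p6. Capitals mark matches to the NF-kB consensus motif, searched on both strands and counted once where a match reads on both.
Nfkb2, chr19:46304487-46304786, plus strand, the first of 3 listed starts: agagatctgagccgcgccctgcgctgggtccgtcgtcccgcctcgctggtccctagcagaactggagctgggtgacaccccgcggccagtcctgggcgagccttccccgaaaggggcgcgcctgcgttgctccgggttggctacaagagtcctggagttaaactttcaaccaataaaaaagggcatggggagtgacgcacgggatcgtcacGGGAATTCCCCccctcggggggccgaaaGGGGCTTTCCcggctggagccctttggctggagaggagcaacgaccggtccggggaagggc
Rela, chr19:5637291-5637590, plus strand: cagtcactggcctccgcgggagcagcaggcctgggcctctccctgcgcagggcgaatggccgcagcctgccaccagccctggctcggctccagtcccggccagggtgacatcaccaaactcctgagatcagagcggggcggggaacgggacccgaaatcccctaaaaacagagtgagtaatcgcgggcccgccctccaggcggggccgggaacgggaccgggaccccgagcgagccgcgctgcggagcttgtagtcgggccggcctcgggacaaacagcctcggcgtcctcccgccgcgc
Nfkbia, chr12:55492598-55492897, minus strand: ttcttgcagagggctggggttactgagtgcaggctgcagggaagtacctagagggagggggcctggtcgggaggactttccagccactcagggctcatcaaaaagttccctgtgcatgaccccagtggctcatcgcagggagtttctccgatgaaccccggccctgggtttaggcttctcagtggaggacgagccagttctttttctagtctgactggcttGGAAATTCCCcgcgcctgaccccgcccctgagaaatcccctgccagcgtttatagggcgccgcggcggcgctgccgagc
Tnfaip3, chr10:19015361-19015660, minus strand, the first of 2 listed starts: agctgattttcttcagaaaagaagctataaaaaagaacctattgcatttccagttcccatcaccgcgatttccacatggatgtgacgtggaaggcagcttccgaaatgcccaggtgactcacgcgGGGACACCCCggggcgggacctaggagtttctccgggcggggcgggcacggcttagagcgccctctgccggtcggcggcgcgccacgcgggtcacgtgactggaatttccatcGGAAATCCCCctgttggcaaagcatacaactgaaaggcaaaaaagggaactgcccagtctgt
Tnf, chr17:35201958-35202257, minus strand: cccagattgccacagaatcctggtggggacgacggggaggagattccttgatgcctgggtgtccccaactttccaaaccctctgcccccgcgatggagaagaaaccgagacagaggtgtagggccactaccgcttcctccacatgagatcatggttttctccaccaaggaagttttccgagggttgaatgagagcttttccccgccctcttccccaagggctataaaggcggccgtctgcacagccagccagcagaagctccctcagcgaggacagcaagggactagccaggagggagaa
Il1b, chr2:129371090-129371389, minus strand: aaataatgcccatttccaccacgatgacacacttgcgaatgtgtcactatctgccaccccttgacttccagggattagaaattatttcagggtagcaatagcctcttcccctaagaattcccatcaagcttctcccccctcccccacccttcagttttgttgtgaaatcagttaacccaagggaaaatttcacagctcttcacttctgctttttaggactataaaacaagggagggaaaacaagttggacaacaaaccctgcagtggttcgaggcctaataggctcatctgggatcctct
Il18, chr9:50554450-50554749, plus strand: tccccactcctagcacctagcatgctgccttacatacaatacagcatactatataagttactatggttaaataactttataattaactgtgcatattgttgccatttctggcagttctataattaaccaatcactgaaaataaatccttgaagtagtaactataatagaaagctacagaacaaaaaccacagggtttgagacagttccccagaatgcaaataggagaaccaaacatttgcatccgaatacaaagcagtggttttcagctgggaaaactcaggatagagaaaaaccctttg
Acod1, chr14:103046762-103047061, plus strand: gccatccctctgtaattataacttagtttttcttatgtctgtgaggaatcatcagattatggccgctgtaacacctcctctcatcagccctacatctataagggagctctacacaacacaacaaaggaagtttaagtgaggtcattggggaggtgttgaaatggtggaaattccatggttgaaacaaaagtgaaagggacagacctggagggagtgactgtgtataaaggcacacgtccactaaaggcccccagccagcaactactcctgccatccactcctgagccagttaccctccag

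These 8 genes have 11 windows in all, and the consensus was found in 5 of the 11, all of them windows of Nfkb2, Nfkbia or Tnfaip3. The windows are not independent. Nfkb2 has 3 of them, and its windows 2 and 3 overlap (chr19:46305445-46305744 and 46305680-46305979). The same GGGACTTTCC lies in both, at 11 to 20 from the start in window 2 and -225 to -216 in window 3. It is the only match of window 3. By gene, 3 of the 8 hold a match. Of all 32851 windows of this length, 8.46% hold the consensus, and the 5 of 11 was not tested against this share. In Nfkbia the match GGAAATTCCC lies at -29 to -20 from the start. In Tnfaip3 a match lies at -12 to -3 and another at -125 to -116. The windows of Rela, Tnf, Il1b, Il18 and Acod1 held no match to this motif in these letters. In treated over young controls Nfkb2, Nfkbia and Tnfaip3 had values of 0.67, 0.70 and 1.40. Of the genes without a match, Rela, Il1b and Acod1 were above 0 there (0.44, 1.01 and 2.54). Tnf and Il18 were below 0 (-0.16 and -0.58). In treated over aged controls Nfkb2, Nfkbia and Tnfaip3 had values of 0.35, 0.66 and 1.03. Of the genes without a match, Rela and Il1b were above 0 there (0.34 and 0.44). Tnf, Il18 and Acod1 were below 0 (-0.98, -0.68 and -1.63). A link between matches and direction was not tested.

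Vutiglabridin-treated RPE differed from aged control RPE in 4 of the 10 genes: the inhibitor genes Nfkbia and Tnfaip3 rose, and Il18 and Acod1 fell. Of all genes tested, 4.34% were called in this comparison, 2.37% higher and 1.97% lower. The median log2 fold change of the 10 genes was 0.34, beside -0.01 over all genes tested, with 7 genes above 0 and 3 below. In 8 of the 10 genes the treated and the aged control libraries did not overlap, a pattern seen in 32.2% of all genes. The calls rest on few libraries. With 1 library left out, 0 of the 10 genes were called without any one of the aged controls, without young control 2 or 3, or without treated replicate 2, where 5 to 8 had an unadjusted p under 0.05. The count was 1 without treated replicate 1, 3 without young control 1 and 7 without treated replicate 3. The count over all genes moved too. It was 25 to 63 without any one aged control, and 345, 617 and 561 without young control 2, young control 3 and treated replicate 2. Without treated replicate 1, young control 1 and treated replicate 3 it was 634, 1113 and 4092, beside 1098 with all libraries. With all libraries, DESeq2 called 5, the 4 above and Nfkb1 (adjusted p = 0.015). Limma-voom also called 5, Nfkbia, Tnfaip3, Il18, Nfkb1 (adjusted p = 0.0178) and Rela (adjusted p = 0.0425), but not Acod1 (adjusted p = 0.0641). A fit of only the treated and aged control libraries called 0, with 8 of the 10 at an unadjusted p under 0.05. Of all genes, DESeq2 called 3085, limma-voom 2718 and that fit 178.

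**Figure D1:**
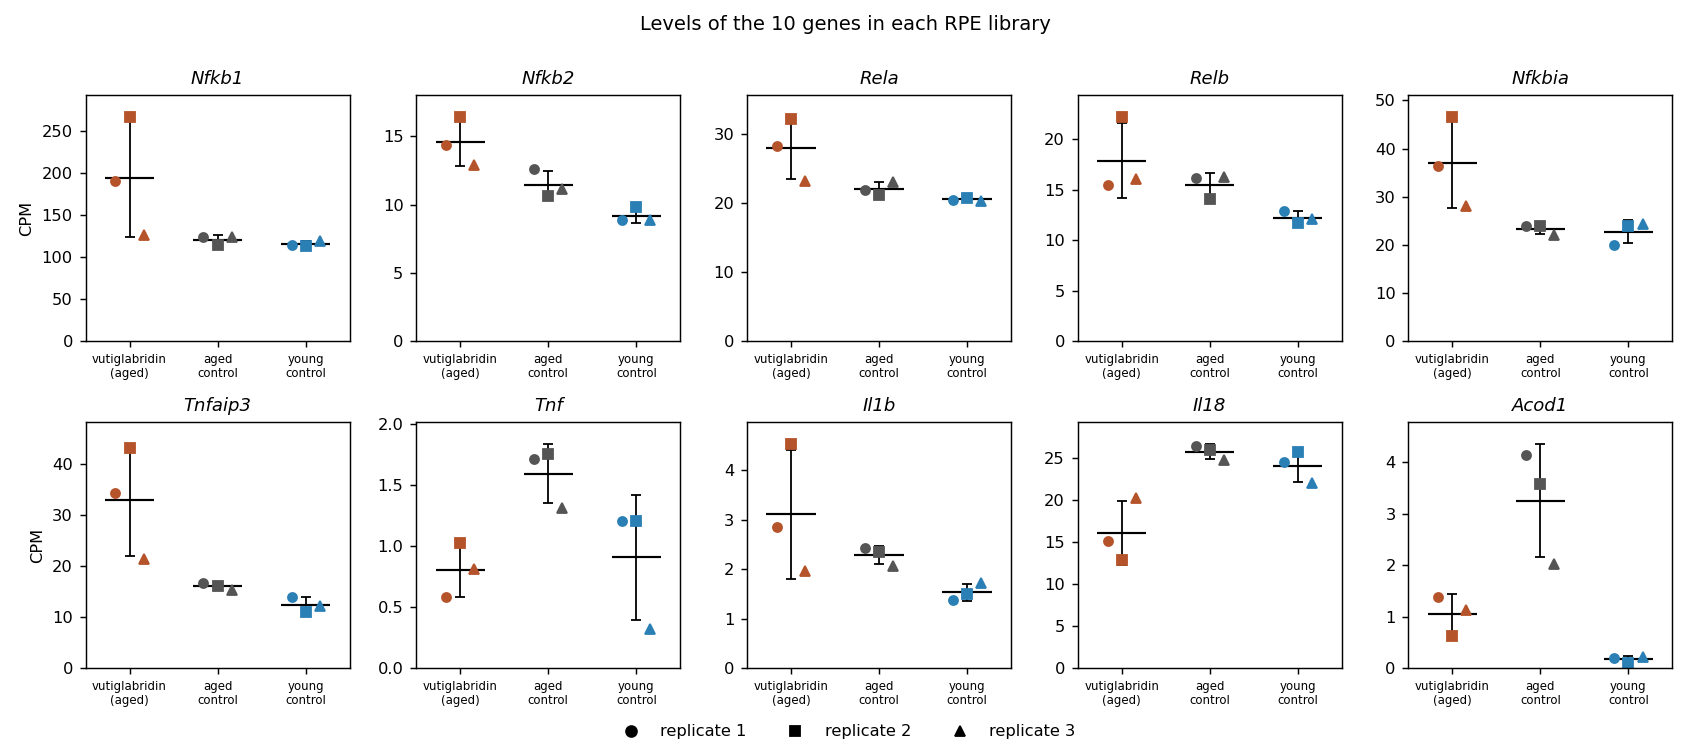
Level of each gene in CPM (y axes start at 0) in the 3 vutiglabridin-treated, 3 aged control and 3 young control libraries; the marker shape gives the replicate, the line the mean and the bar the SD. Treated replicate 2 (square) is the highest treated library for 8 of the 10 genes, all but Il18 and Acod1, and Acod1 is near 0 in young controls.

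Nfkbia encodes IkB alpha, the inhibitor that holds NF-kB dimers in the cytoplasm and is itself induced by them. In the deposited coordinates, whose chromosome versions are those of GRCm39 although the processing notes name GRCm38, it lies on chromosome 12 from 55536194 to 55539432 and overlaps no other gene. Nfkbia stood at 36.4, 46.5 and 27.99 CPM in treated libraries, 24.0, 23.9 and 22.1 CPM in aged controls, and 19.9, 24.0 and 24.3 CPM in young controls. Every treated library was above every control library, and the aged and young controls overlapped. The level was 1.58-fold higher in treated than in aged control samples (0.66 ± 0.16, adjusted p = 0.0491) and 1.62-fold higher than in young controls (0.70 ± 0.16, adjusted p = 0.0201). Aged and young controls differed by 0.04 ± 0.16 (adjusted p = 0.969). The call against aged controls was kept in 1 of 9 fits that leave out 1 library, the one without treated replicate 3, and its adjusted p reached 0.175. That against young controls was lost without young control 1 or 2 (adjusted p = 0.073 and 0.0526).

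Tnfaip3 encodes A20, a ubiquitin-editing enzyme that shuts off signalling from tumour necrosis factor and Toll-like receptors. It lies on chromosome 10 from 18876658 to 18891158 and overlaps no other gene in the table. Tnfaip3 had 34.3, 43.0 and 21.4 CPM in treated libraries, 16.7, 16.1 and 15.3 CPM in aged controls, and 14.0, 11.1 and 12.2 CPM in young controls. The 3 groups did not overlap, and the treated libraries differed among themselves by 2.01-fold. Among the 10 genes Tnfaip3 had the highest treatment fold change against aged controls, 2.05-fold (1.03 ± 0.21, adjusted p = 0.0313). Against young controls it was 2.65-fold (1.40 ± 0.21, adjusted p = 0.00452), a call kept in all 9 fits that leave out 1 library. Aged over young controls gave 0.37 ± 0.21 (adjusted p = 0.583). The call against aged controls was kept in 2 of those 9 fits, those leaving out treated replicate 3 or young control 1, while the others reached an adjusted p of 0.144. In the fit without treated replicate 2 and young control 1, Tnfaip3 was the 1 gene of the 10 still called against aged controls (0.79, adjusted p = 0.0498). Of all genes, 892 were called in that fit and comparison.

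**Figure D2:**
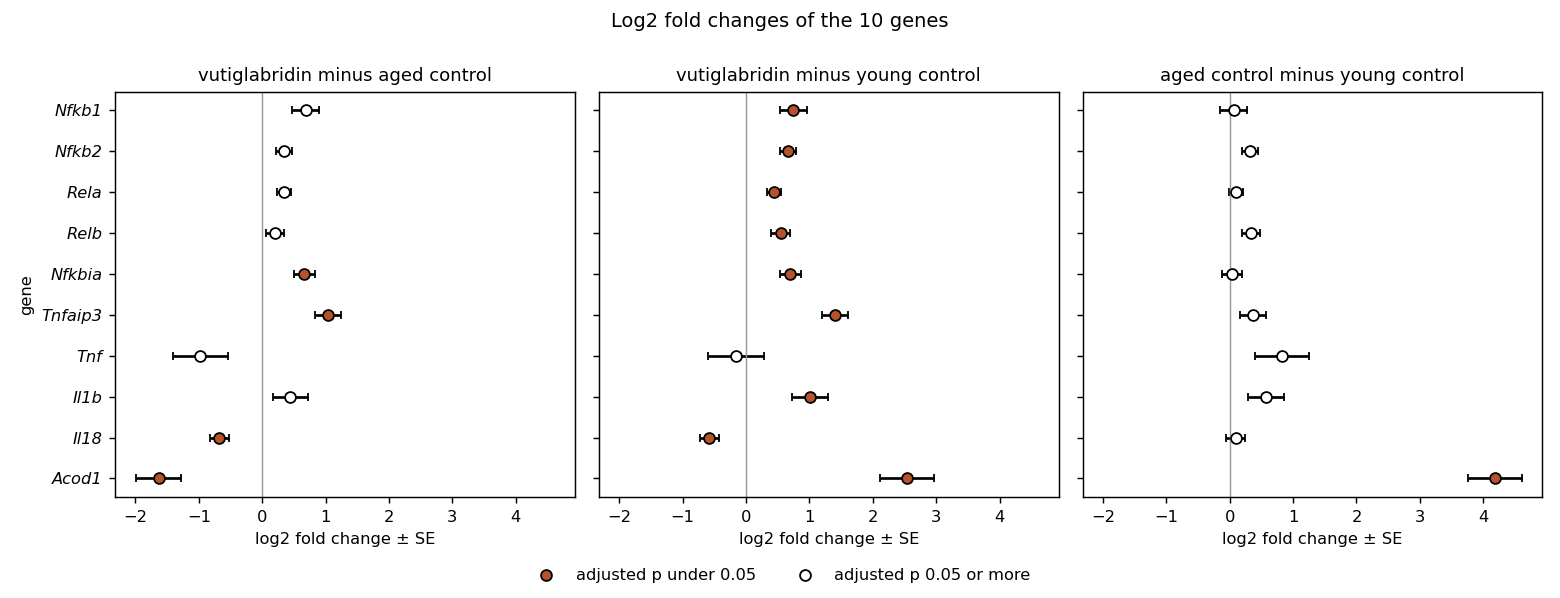
Log2 fold change ± SE of each gene in the 3 comparisons (x axis); filled points have an adjusted p under 0.05. In the treated against aged control comparison Nfkbia and Tnfaip3 lie above 0 and Il18 and Acod1 below 0 among the called genes, while in aged against young controls only Acod1 is called.

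The 4 genes of NF-kB subunits did not pass edgeR's test between treated and aged control samples, where other tools called Nfkb1 and Rela as given above, and all 4 rose between treated and young control samples. Of all genes tested, 16.7% were called in that second comparison, 9.01% higher and 7.69% lower; over the 10 genes 8 rose and 1 fell, with a median of 0.68, beside -0.01 over all genes. In 9 of the 10 genes treated and young control libraries did not overlap, as in 33.2% of all genes. In aged against young controls 0 of these 4 genes were called, while Nfkb2 and Relb had an unadjusted p under 0.05 in edgeR's test. In that comparison DESeq2 called Acod1 alone among the 10, and limma-voom called Acod1 and Relb. Of all genes, DESeq2 called 949 there and limma-voom 2031.

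Nfkb1 encodes the precursor of the p50 subunit, which pairs with RelA in the classical dimer. Nfkb1 stood at 191, 267 and 126 CPM in treated libraries, 124, 114 and 125 CPM in aged controls, and 115, 113 and 120 CPM in young controls. The lowest treated library was just above the highest aged control, and the aged and young controls overlapped. The fold changes were 0.69 ± 0.21 against aged controls (adjusted p = 0.0881) and 0.75 ± 0.21 against young controls (adjusted p = 0.0400). Against aged controls the adjusted p was 0.00157 without treated replicate 3 and 0.266 at most without another library. Against young controls the call was kept without treated replicate 3 alone of the 9 fits, and the adjusted p reached 0.114.

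Rela encodes the transactivating subunit of that dimer. Rela had 28.3, 32.2 and 23.2 CPM in treated libraries, 21.9, 21.1 and 23.0 CPM in aged controls, and 20.5, 20.8 and 20.3 CPM in young controls. The 3 groups did not overlap, although treated replicate 3 and aged control 3 were nearly equal. The difference was 0.34 ± 0.12 against aged controls (adjusted p = 0.109) and 0.44 ± 0.12 against young controls (adjusted p = 0.0305). Of the 9 fits that leave out 1 library, the one without treated replicate 3 kept the call against young controls (adjusted p up to 0.0811 in the rest). Without treated replicate 3 Rela also passed the test against aged controls (adjusted p = 0.0094).

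Nfkb2 and Relb encode the subunits of the alternative pathway, which lymphotoxin and CD40 receptors activate. Nfkb2 stood at 14.4, 16.4 and 12.9 CPM in treated libraries, 12.6, 10.6 and 11.1 CPM in aged controls, and 8.88, 9.79 and 8.85 CPM in young controls. These 3 ranges did not overlap, in the order treated, aged control and young control. The step between treated and aged controls was 0.35 ± 0.12 (adjusted p = 0.118) and that between aged and young controls 0.32 ± 0.12 (adjusted p = 0.318). Treated over young controls gave 0.67 ± 0.12 (adjusted p = 0.00828), kept in all 9 fits that leave out 1 library. Nfkb2 shares 2045 bases with 4833438C02Rik and 316 bases with Psd on the opposite strand, whose reads cannot be told apart there. Treated over aged controls gave -0.17 ± 0.16 for 4833438C02Rik (adjusted p = 0.537) and 0.69 ± 0.14 for Psd (adjusted p = 0.0323). Against young controls these values were -0.15 ± 0.16 (adjusted p = 0.55) and 0.95 ± 0.15 (adjusted p = 0.00441).

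Relb had 15.4, 22.2 and 16.0 CPM in treated libraries, 16.1, 14.1 and 16.2 CPM in aged controls, and 12.9, 11.7 and 12.1 CPM in young controls. Treated and aged control libraries overlapped, and both stood above every young control. Relb differed by 0.21 ± 0.14 between treated and aged controls (adjusted p = 0.385) and by 0.34 ± 0.14 between aged and young controls (adjusted p = 0.391). Treated over young controls gave 0.55 ± 0.14 (adjusted p = 0.0300), kept in 3 of 9 fits that leave out 1 library (adjusted p up to 0.0903).

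The cytokine genes did not move together. Il18 encodes interleukin-18, a cytokine of the interleukin-1 family that is made as a precursor and cleaved by caspase-1. Il18 had 15.1, 12.8 and 20.3 CPM in treated libraries, 26.5, 26.0 and 24.7 CPM in aged controls, and 24.5, 25.8 and 21.97 CPM in young controls. All treated libraries were below all control libraries, and the aged and young controls overlapped. The level was 0.625-fold that of aged controls (-0.68 ± 0.15, adjusted p = 0.0381) and 0.668-fold that of young controls (-0.58 ± 0.15, adjusted p = 0.0286). Aged over young controls gave 0.10 ± 0.15 (adjusted p = 0.889). Each treatment call was kept in 2 of 9 fits that leave out 1 library. Against aged controls these left out treated replicate 3 or young control 1, and the adjusted p reached 0.156. Against young controls they left out treated replicate 3 or young control 3, and it reached 0.0935. Il18 shares 4121 bases with Tex12 and 514 bases with Bco2 on the opposite strand. Their treated over aged control values were -1.05 ± 0.34 and -0.62 ± 0.18 (adjusted p = 0.0963 and 0.0715). Their treated over young control values were -0.55 ± 0.34 and -0.96 ± 0.18 (adjusted p = 0.289 and 0.00841).

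Tnf encodes tumour necrosis factor, a main activator and target of NF-kB. It was the gene of fewest reads beside Acod1, with 25 to 48 counts per treated library, 66 to 97 per aged control and 18 to 55 per young control. Tnf stood at 0.581, 1.03 and 0.814 CPM in treated libraries, 1.71, 1.75 and 1.32 CPM in aged controls, and 1.203, 1.21 and 0.321 CPM in young controls. Aged controls were above all other libraries, and treated and young control libraries overlapped. The treated over aged control value of -0.98 ± 0.43 did not pass the test (adjusted p = 0.193), nor did the aged over young control value of 0.82 ± 0.43 (adjusted p = 0.530). Treated over young controls gave -0.16 ± 0.44 (adjusted p = 0.828), and the sign of this value turned without treated replicate 1 or without young control 1 or 2 (0.03, 0.10 and 0.12).

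Il1b encodes interleukin-1 beta, the precursor cytokine that inflammasomes mature. Il1b had 2.86, 4.52 and 1.96 CPM in treated libraries, 2.43, 2.36 and 2.07 CPM in aged controls, and 1.39, 1.495 and 1.73 CPM in young controls. Treated libraries lay on both sides of the aged controls, and both groups were above every young control. The rise over young controls was 2.02-fold (1.01 ± 0.28, adjusted p = 0.0361), kept only without treated replicate 3 among the 9 fits that leave out 1 library (adjusted p up to 0.104). Treated over aged controls gave 0.44 ± 0.28 (adjusted p = 0.342), which was 0.07 without treated replicate 2, and aged over young controls gave 0.57 ± 0.28 (adjusted p = 0.494). The whole of Il1b lies within Gm29941 on the opposite strand, and reads of the pair cannot be told apart. The Gm29941 level was 19.9 to 24.9 CPM in treated libraries, 21.9 to 22.9 CPM in aged controls and 23.8 to 24.8 CPM in young controls.

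Acod1 encodes the enzyme that makes itaconate from an intermediate of the citric acid cycle in activated macrophages, and it was the 1 gene of the 10 called with age. Of all genes tested, 1.68% were called between aged and young controls, 1.48% higher and 0.202% lower. The 10 genes had a median of 0.33 there, beside -0.01 over all genes, and all 10 values were above 0. Aged and young control libraries did not overlap in 7 of the 10, as in 25.3% of all genes. That of Nfkbia, 0.04, turned to -0.05 without young control 1. Acod1 stood at 1.40, 0.622 and 1.13 CPM in treated libraries, 4.14, 3.59 and 2.04 CPM in aged controls, and 0.204, 0.110 and 0.214 CPM in young controls. The 3 groups did not overlap, with treated samples between aged and young controls.

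The underlying Acod1 counts were 29 to 61 per treated library, 102 to 235 per aged control and 5 to 12 per young control. Aged over young controls gave 18.1-fold (4.18 ± 0.43, adjusted p = 0.00303), and treated over young controls 5.83-fold (2.54 ± 0.43, adjusted p = 0.00612). Both calls were kept in all 9 fits that leave out 1 library. Treated over aged controls gave 0.322-fold (-1.63 ± 0.35, adjusted p = 0.0356), kept in 3 of those 9 fits, those leaving out treated replicate 1, treated replicate 3 or young control 1, while the others reached an adjusted p of 0.161. The call was also lost with limma-voom (0.0641), with a fit of only these groups (0.0767) and without both treated replicate 2 and young control 1 (0.0605). Acod1 lies on chromosome 14 from 103284448 to 103294009 and shares 1729 bases with Gm41235 on the opposite strand. Gm41235 had 7 to 19 counts per treated library, 29 to 42 per aged control and 0 to 3 per young control. Its aged over young control value was 4.44 ± 0.66 (adjusted p = 0.0105). Its treated values were -1.12 ± 0.48 against aged controls (adjusted p = 0.183) and 3.33 ± 0.70 against young controls (adjusted p = 0.0139).

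**Figure D3:**
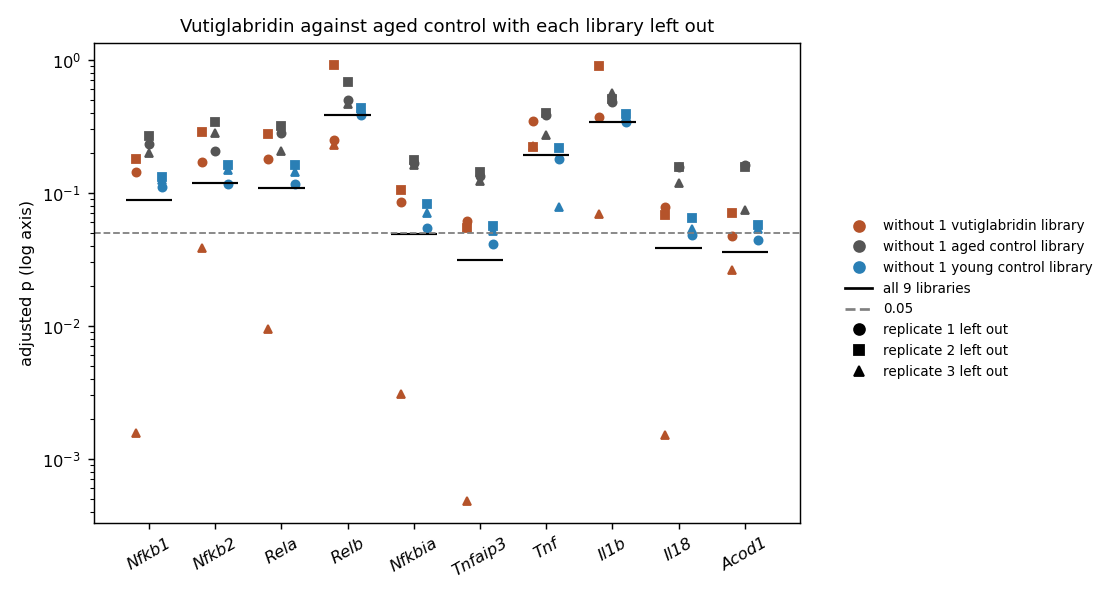
Adjusted p of each gene in treated against aged control samples (log axis) with all 9 libraries (line) and with each library left out (points, colour by group, shape by replicate); the dashed line is 0.05. Without treated replicate 3, 7 genes lie below the line, where 4092 of all genes were called. Without any one aged control all 10 lie above it, where 25 to 63 of all genes were called.

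For 8 of the 10 genes, all but Tnf and Acod1, the SD was larger in treated libraries than in either control group. Replicate 2 was the highest treated library in 8 of the 10. Replicate 3 was the lowest in 6 of the 10. The 2 genes for which replicate 2 was the lowest treated library were Il18 and Acod1. Haemoglobin and stratified epithelium sums were also highest in replicate 2, but lowest in replicate 1 and not in replicate 3. Skeletal muscle, fibroblast and monocyte marker sums were highest in replicate 2 and lowest in replicate 3. In treated replicates 1, 2 and 3 they were 297, 393 and 96.2 CPM for muscle and 1994, 2610 and 1851 CPM for fibroblasts. Monocyte markers summed to 471, 651 and 414 CPM there, of which Fn1 alone gave 433, 608 and 387 CPM. RPE marker sums were instead lowest in replicate 2, at 15270, 9455 and 10090 CPM in treated replicates 1, 2 and 3. The part of all these markers in the values of the 10 genes, and that of the rod markers, was not tested. Without treated replicate 2 the treated over aged control values were 0.39 for Nfkb1, 0.47 for Nfkbia, 0.80 for Tnfaip3, -0.54 for Il18 and -1.37 for Acod1, each of the same sign as with all libraries.

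Macrophage and microglia markers give a second set of values beside these genes. The 16 markers summed to 4879, 4604 and 3785 CPM in treated libraries, 4836, 4721 and 4367 CPM in aged controls, and 2034, 2814 and 1600 CPM in young controls, and 0 of 16 were at 0 counts in any group. Of the 16, 9 rose and 0 fell between aged and young controls, where 1.48% of all genes were called higher and 0.202% lower. Between treated and aged controls 1 fell and 0 rose, where 2.37% of all genes were called higher and 1.97% lower. The medians were 0.85 and -0.08. Acod1 rose with age beside higher macrophage markers, and fell with treatment beside marker sums that overlapped between treated and aged control libraries. Lyz2 and Ctss make up most of that sum. Single markers differed from the sum, and 4 of the 16 were above 0 in treated over aged controls. Cx3cr1, a microglial receptor gene, had 2.09, 7.08 and 11.2 CPM in treated libraries, 26.7, 25.7 and 23.1 CPM in aged controls, and 13.1, 13.4 and 7.47 CPM in young controls (treated over aged controls -1.88 ± 0.49, adjusted p = 0.0669). The 1 marker called lower was Aif1 (-0.95 ± 0.22, adjusted p = 0.0438). P2ry12 and Tmem119 of the same list gave -0.21 and -0.33 there (adjusted p = 0.449 and 0.323). In aged over young controls they gave 0.07 and -0.04 (adjusted p = 0.932 and 0.97). Mrc1 and Itgam were above 0 in treated over aged controls (0.64 and 0.20, adjusted p = 0.25 and 0.388).

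Of 5 monocyte markers, 1 rose and 1 fell between treated and aged controls, where 2.37% of all genes were called higher and 1.97% lower. Ccr2, the chemokine receptor of inflammatory monocytes, had 5.95, 8.84 and 8.55 CPM in treated libraries, 22.1, 25.7 and 20.2 CPM in aged controls, and 24.4, 11.6 and 13.2 CPM in young controls. It fell relative to aged controls (-1.54 ± 0.27, adjusted p = 0.0236), as Acod1 did, and Fn1, the fibronectin gene, rose (1.23 ± 0.16, adjusted p = 0.0072). The part of macrophage and monocyte markers in the Acod1, Tnf and Il1b values was not tested.

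Neutrophil markers were low. The 10 markers summed to 9.86, 19.8 and 13.6 CPM in treated libraries, 16.6, 15.0 and 15.2 CPM in aged controls, and 12.2, 12.5 and 7.74 CPM in young controls. Csf3r made up much of this sum, averaging 6.81 CPM in treated samples and 11.4 CPM in aged controls (-0.75 ± 0.17, adjusted p = 0.041). Of the 7 markers tested, 6 were above 0 in treated over aged controls, with a median of 0.83. Of the 7, 0 were called higher, where 2.37% of all genes were. Ngp, at 21 to 47 counts per treated library and 10 to 12 per aged control, gave 1.67 ± 0.42 (adjusted p = 0.0539). It was called higher in treated than in young control samples (2.23 ± 0.45, adjusted p = 0.0119). Ly6g, the defining surface marker, had 1 count in 1 treated library and 0 in all other libraries. B cell markers summed to 1.84, 4.38 and 3.16 CPM in treated libraries, 14.6, 11.95 and 7.02 CPM in aged controls, and 7.11, 7.87 and 7.69 CPM in young controls. Of these, 3 of 5 fell with treatment relative to aged controls, where 1.97% of all genes were called lower. T cell and NK cell markers summed to 13.3 to 13.5 CPM in treated libraries, 14.9 to 16.8 CPM in aged controls and 6.63 to 7.85 CPM in young controls. Between aged and young controls the median of these 9 markers was 1.65. Of the 9, 6 rose and 0 fell, where 1.48% of all genes were called higher and 0.202% lower. Between treated and aged controls the median was -0.13. There 0 rose and 1 fell, where 2.37% of all genes were called higher and 1.97% lower. That gene was Gzma (-2.76 ± 0.64, adjusted p = 0.0417), with 1 to 14 counts per treated library and 24 to 73 per aged control. Calls of marker genes were not followed in the fits that leave out 1 library. In treated against aged controls those fits called 25 to 63 of all genes without any one aged control.

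**Figure D4:**
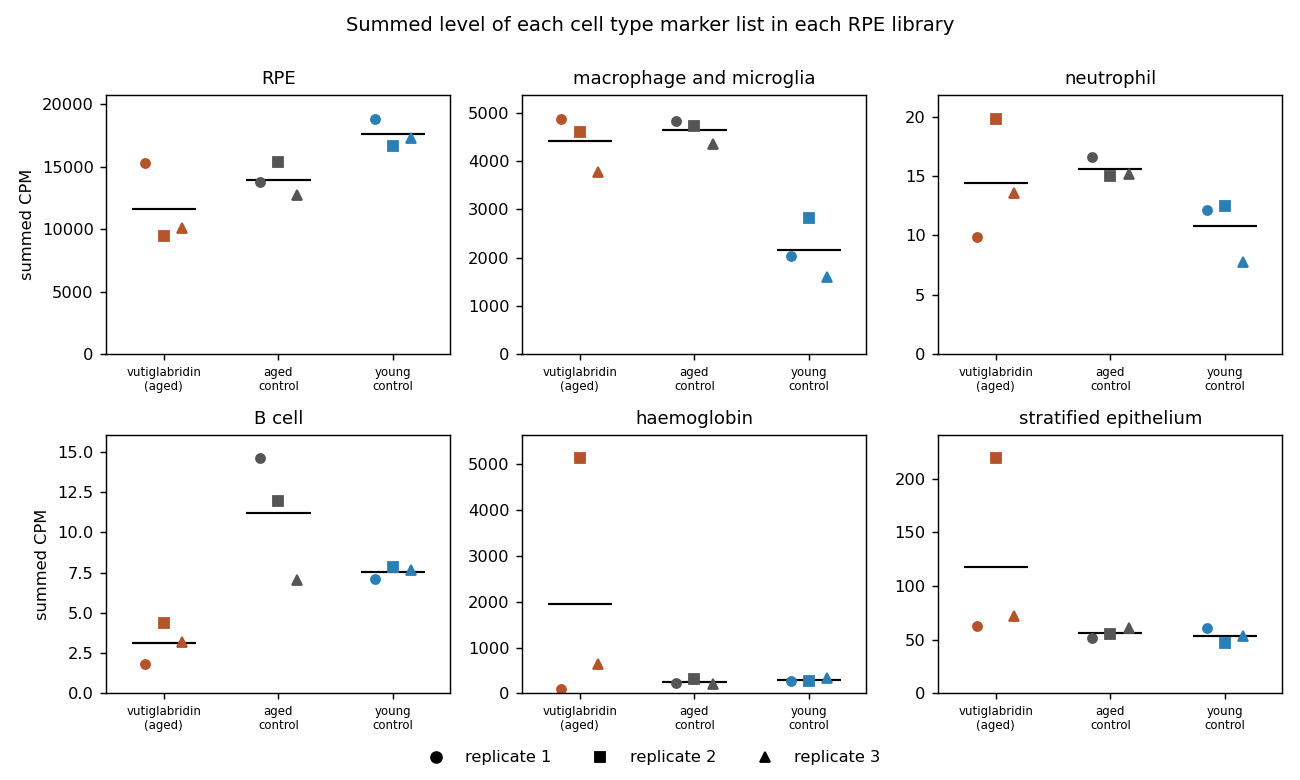
Summed CPM of 6 cell type marker lists in each library (y axes start at 0), with the mean as a line. Macrophage and microglia markers are higher in treated and aged control libraries than in young controls, B cell markers are lowest in treated libraries, and treated replicate 2 (square) is far above the rest for haemoglobin.

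The wider pathway was read from lists of 102 further genes, of which 97 passed the filter. Between treated and aged control samples 7 of these rose and 4 fell (4.34% of all genes were called), and the median was 0.11. The count was 0 without any one aged control, where 34 to 38 had an unadjusted p under 0.05, and 42 without treated replicate 3. DESeq2 called 30 and limma-voom 29. Over all genes the counts were 25 to 63 without any one aged control, 4092 without treated replicate 3, 3085 in DESeq2 and 2718 in limma-voom. Between treated and young control samples 42 rose and 1 fell, where 9.01% of all genes were called higher and 7.69% lower, with a median of 0.42, and 20 to 57 were called with 1 library left out. Between aged and young controls 6 rose and 0 fell, where 1.48% of all genes were called higher and 0.202% lower, with a median of 0.30, and 1 to 19 were called with 1 library left out. Over all genes those left-out counts were 1775 to 6086 for treated against young controls and 73 to 688 for aged against young controls.

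Of 7 other Rel and IkB family genes, 0 were called between treated and aged controls by edgeR, where 4.34% of all genes were called. Between treated and young controls 4 rose, namely Rel, Nfkbib, Nfkbie and Bcl3, where 9.01% of all genes were called higher. Rel, a further transactivating subunit, had 22.8, 40.6 and 20.8 CPM in treated libraries, 19.7, 18.0 and 18.9 CPM in aged controls, and 10.6, 13.4 and 12.1 CPM in young controls. The groups did not overlap, and the rise over young controls was 2.33-fold (1.22 ± 0.22, adjusted p = 0.00896). Bcl3, an atypical IkB protein that works in the nucleus, was 4.66-fold higher in treated than in young control samples (2.22 ± 0.43, adjusted p = 0.0130), and its treated and aged control libraries overlapped. Nfkbib and Nfkbie rose by 0.49 and 0.69, calls kept in 1 and 4 of 9 fits that leave out 1 library, against 9 for Rel and 8 for Bcl3. Between treated and aged controls the smallest p were those of Bcl3 (1.35 ± 0.41, adjusted p = 0.0933), Nfkbiz (1.04 ± 0.37, adjusted p = 0.133), Rel (0.57 ± 0.22, adjusted p = 0.148) and Nfkbib (0.30 ± 0.14, adjusted p = 0.208). Of 32 kinase, adaptor and ubiquitin enzyme genes, 1 changed with treatment relative to aged controls, where 4.34% of all genes were called. The 1 gene was Traf5, an adaptor of tumour necrosis factor family receptors, at 146, 140 and 135 CPM in treated libraries against 185, 196 and 177 CPM in aged controls (-0.41 ± 0.08, adjusted p = 0.0274). Traf5 overlaps Gstp-ps, whose reads cannot be told apart. Against young controls 8 of the 32 rose and 1, Traf5, fell, where 9.01% of all genes were called higher and 7.69% lower. Among the 8 were Irak3, a brake on Toll-like receptor signalling (0.96 ± 0.23, adjusted p = 0.0230), Map3k14, the kinase of the alternative pathway (0.73 ± 0.18, adjusted p = 0.0233), and Irak4 (0.44 ± 0.12, adjusted p = 0.0298). These calls were kept in 7, 6 and 1 of the 9 fits that leave out 1 library, in that order of genes. In edgeR's test 0 of the 32 were called between aged and young controls; Irak2, Ikbke, Card9 and Tnip3 had the smallest p there, with values of 0.25, 0.57, 0.55 and 0.79 (adjusted p = 0.187, 0.193, 0.290 and 0.310), all under 0.05 unadjusted.

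Of 20 receptor list genes tested, 4 rose in treated relative to aged control samples and 0 fell, where 2.37% of all genes were called higher and 1.97% lower. Of these 4 genes, 3 bind interleukin-1 or block its receptor. Il1rn, the interleukin-1 receptor antagonist, had 12.6, 13.5 and 8.90 CPM in treated libraries, 2.59, 2.83 and 2.69 CPM in aged controls, and 2.02, 1.1 and 0.410 CPM in young controls. It rose 4.31-fold over aged controls (2.11 ± 0.41, adjusted p = 0.0300). Il1r2, the decoy receptor that binds interleukin-1 without signalling, had 2.00, 4.31 and 1.61 CPM in treated libraries and 0.494, 0.370 and 0.399 CPM in aged controls (2.64 ± 0.46, adjusted p = 0.0217). The signalling receptor gene Il1r1 had 62.9, 75.1 and 44.8 CPM in treated libraries and 35.3, 30.7 and 34.1 CPM in aged controls (0.87 ± 0.17, adjusted p = 0.0274). In all 3 genes the treated libraries were above all controls. Il1rap, the other subunit of the signalling receptor, did not pass the test against aged controls (0.23 ± 0.08, adjusted p = 0.138), and its treated and young control libraries overlapped (0.07 ± 0.08, adjusted p = 0.578).

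Tnfrsf12a, the receptor of the cytokine TWEAK, had 34.7, 36.2 and 4.87 CPM in treated libraries against 3.16, 2.40 and 2.73 CPM in aged controls (3.19 ± 0.65, adjusted p = 0.0397). Treated replicate 3 was close to the controls, while the other treated libraries were far above them. These 4 receptor calls were kept in 1 to 6 of 9 fits that leave out 1 library and were lost without any one aged control. Tnfrsf1b, the second receptor of tumour necrosis factor, was instead a gene of age. It had 69.2, 72.8 and 70.2 CPM in treated libraries, 83.2, 77.8 and 86.2 CPM in aged controls, and 34.3, 51.1 and 39.6 CPM in young controls. Aged over young controls gave 1.98-fold (0.98 ± 0.13, adjusted p = 0.00700), kept in all 9 fits, and treated over aged controls gave -0.22 ± 0.13 (adjusted p = 0.307). Il18rap, a subunit of the interleukin-18 receptor, averaged 4.35 ± 0.48 CPM in aged controls and 1.66 ± 0.43 CPM in young controls (1.39 ± 0.22, adjusted p = 0.0116), a call lost without either aged control 1 or aged control 3.

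**Figure D5:**
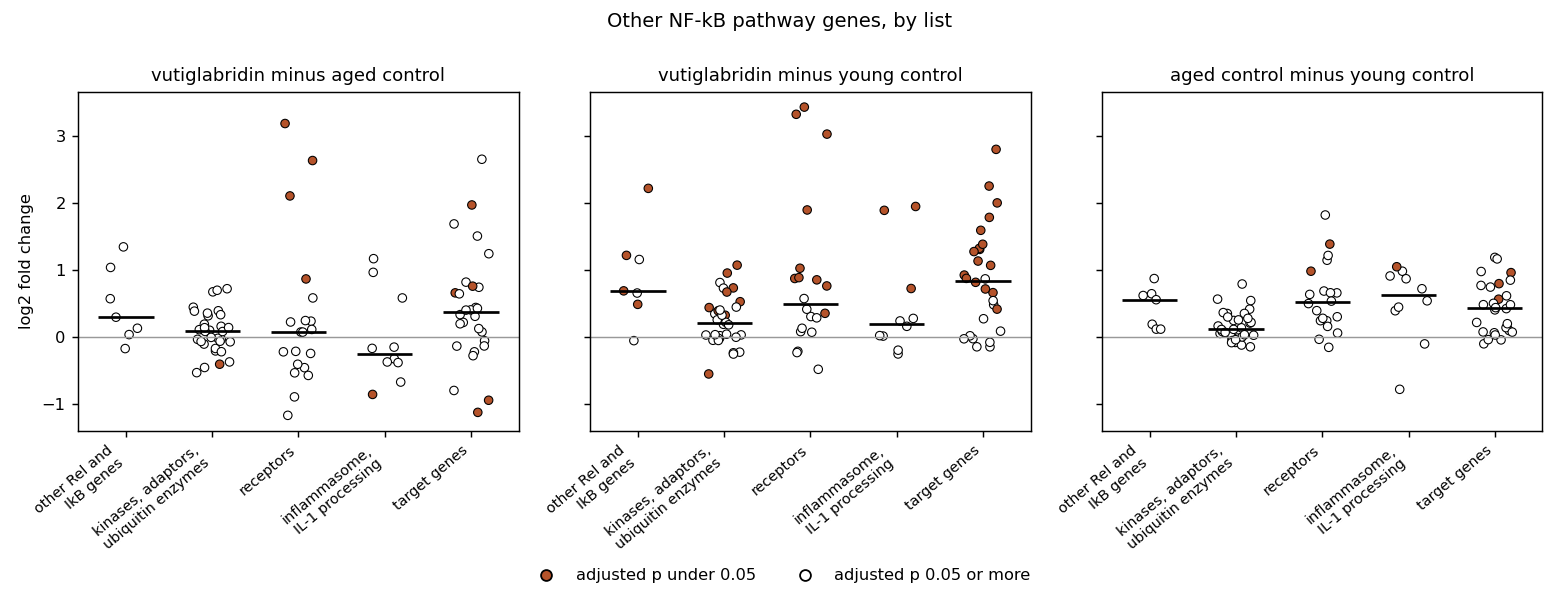
Log2 fold change of each of 97 other NF-kB pathway genes (points) by list in the 3 comparisons; lines are list medians and filled points have an adjusted p under 0.05. In treated against aged control samples the called receptor genes lie above 0, the 1 called inflammasome gene lies below 0, and the target genes hold calls on both sides.

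Inflammasome genes gave 1 call with treatment and 1 with age, where 4.34% and 1.68% of all genes were called. Of 10 tested, Nlrp1b, an inflammasome sensor, fell to 14.4, 20.3 and 29.1 CPM in treated libraries, against 40.8, 35.3 and 39.5 CPM in aged controls (-0.86 ± 0.20, adjusted p = 0.0465), and Aim2, a sensor of cytosolic DNA, was higher in aged controls (26.3 ± 1.74 CPM) than in young controls (12.7 ± 1.36 CPM, 1.05 ± 0.19, adjusted p = 0.0251). Nlrp1b has close copies in the mouse genome, so its reads may be shared. Casp1, the enzyme that cleaves the precursors of interleukin-1 beta and interleukin-18, did not pass the test between treated and aged controls (-0.67 ± 0.22, adjusted p = 0.0972). Casp4, a caspase that senses bacterial lipopolysaccharide, had 34.2, 32.7 and 12.4 CPM in treated libraries, 12.9, 12.3 and 9.96 CPM in aged controls, and 6.83, 8.44 and 6.05 CPM in young controls. It rose over young controls (1.89 ± 0.34, adjusted p = 0.00953), as did the sensor gene Nlrp3 (1.95 ± 0.44, adjusted p = 0.0181), and in both genes treated and aged control libraries overlapped. The calls of Casp4 and Nlrp3 were kept in 9 and 7 of the 9 fits. Casp4 lies wholly within another gene of the opposite strand. Nlrp1b kept its call without treated replicate 3 alone, and Aim2 lost its call without any one aged control and without young control 1 or 3.

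Known NF-kB target genes were called in both directions. Of 28 tested, 3 rose and 2 fell between treated and aged control samples, with a median of 0.37, where 2.37% of all genes were called higher and 1.97% lower. Zc3h12a, a ribonuclease that degrades cytokine transcripts, had 13.8, 14.2 and 10.1 CPM in treated libraries, 8.39, 7.47 and 8.20 CPM in aged controls, and 4.45, 5.96 and 5.28 CPM in young controls. Its treated over aged control value was 0.66 ± 0.16 (adjusted p = 0.0461). The anti-apoptotic gene Bcl2l1 (0.76 ± 0.16, adjusted p = 0.0331) and the histidine decarboxylase gene Hdc (1.97 ± 0.44, adjusted p = 0.0406) rose too. Irf1, an interferon-induced transcription factor that NF-kB also induces, had 25.0, 34.6 and 20.4 CPM in treated libraries, 55.7, 53.3 and 44.9 CPM in aged controls, and 27.2, 27.0 and 24.8 CPM in young controls. It fell with treatment (-0.94 ± 0.17, adjusted p = 0.0234) and rose with age (0.96 ± 0.17, adjusted p = 0.0204), and the age call was lost without any one aged or young control (adjusted p up to 0.11). Ltb, the lymphotoxin beta gene of lymphocytes, averaged 0.363 ± 0.0104 CPM in treated and 0.794 ± 0.0921 CPM in aged control samples (-1.12 ± 0.27, adjusted p = 0.0471). B cell markers were lower in the same libraries, and their part in the Ltb value was not tested. These 5 calls were lost without any one aged control and were kept in 2 to 5 of the 9 fits.

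Between treated and young control samples 17 of the 28 target genes rose and 0 fell, where 9.01% of all genes were called higher and 7.69% lower. Icam1, a leukocyte adhesion receptor, had 86.7, 115 and 94.3 CPM in treated libraries, 78.5, 70.8 and 68.4 CPM in aged controls, and 52.1, 54.9 and 48.6 CPM in young controls, with no overlap between the groups. Treated over young controls gave 1.90-fold (0.93 ± 0.11, adjusted p = 0.00197), while treated over aged controls missed the threshold (0.44 ± 0.11, adjusted p = 0.0514). Vcam1, another adhesion receptor, rose with age (0.57 ± 0.12, adjusted p = 0.0432), averaging 69.5 ± 6.79 CPM in aged controls and 46.9 ± 3.59 CPM in young controls, a call kept in 2 of the 9 fits. Bcl2a1b, an anti-apoptotic gene with near-identical copies that may share its reads, had 33.7, 31.5 and 29.3 CPM in aged controls against 18.3, 20.4 and 15.7 CPM in young controls (0.80 ± 0.12, adjusted p = 0.0111), a call lost without aged control 1, aged control 2 or young control 3 (adjusted p up to 0.0691). Relt, a receptor of the tumour necrosis factor family, rose in treated over young control samples (1.59 ± 0.28, adjusted p = 0.00676), as did Zc3h12a (1.28 ± 0.16, adjusted p = 0.00233) and Vcam1 (0.88 ± 0.12, adjusted p = 0.00278), and these calls and that of Icam1 were kept in all 9 fits. Of the other pathway genes named, Nfkbib, Bcl3, Map3k14, Ikbke, Card9, Irak3, Tnfrsf12a, Il1r2, Il1rap, Nlrp1b, Aim2, Casp1, Bcl2l1 and Ltb each overlap another gene too. The comparisons share control libraries, so they are not independent of each other.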

How the data were processed

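The submitters' processing notes list Bowtie2 2.3.4.1, featureCounts 1.6.0, DESeq2 (no version) and the build GRCm38. Per the labels' protocols, libraries came from a stranded total RNA kit. Raw counts per gene and FPKM are deposited per library, per the file headers. FPKM values as deposited are counts over gene span and library total (relative tolerance 1e-06) and were not tested. Since spans include introns and whether counting used strand is not given in the sources used here, reads of overlapping genes cannot be told apart. No coordinates were converted between builds.

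Raw counts of all 9 libraries were fitted together with edgeR 4.0.16 (filterByExpr, TMM, robust quasi-likelihood) in R 4.3.3, without covariates, with Benjamini-Hochberg adjustment over all genes tested. The SE is the fold change over the root of its F statistic, and levels are TMM-scaled CPM. The script was tested on simulated counts. Alternatives used DESeq2 1.42.0, limma 3.58.1, other size factors, filters and thresholds, fewer groups, a replicate block and each library left out. The members and the gene lists were chosen with earlier results of these data known. By rule, all 10 members were named, with pathway genes called in any comparison (up to 4 of smallest p per list and comparison where none or more are called) and the 3 genes most like each member. Casp1, Il1rap, Il18r1 and Il18bp, and the marker genes given singly, were named after their values were seen.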

Additional observations from a re-analysis of the deposited data

How the results depend on the processing

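Among fold changes of the 10 genes under alternatives, 490 kept direction and side of the threshold, 96 lost a call, 8 gained one and 6 turned sign. The sign turned for Nfkbia in aged against young controls with limma-voom (-0.0061), without young control 1 (-0.049) and without both libraries that stand apart, treated replicate 2 and young control 1 (-0.0489); its range with 1 library left out was -0.049 to 0.0879. It turned for Tnf in treated against young controls without treated replicate 1 (0.03) or young control 1 (0.10) or 2 (0.12), with a range of -0.58 to 0.12. The cause was not tested. In treated against aged controls, 4 of the 10 genes, 11 pathway genes and 1098 of all genes were called. DESeq2 called 30 pathway genes and 3085 of all genes, and limma-voom 29 and 2718. Fitting only these groups gave 0, 2 and 178, where 8 of the 10 genes had an unadjusted p under 0.05. The 7 libraries without those that stand apart gave 1, 7 and 892 for the 10 genes, the pathway and all genes. A threshold of 0.1 gave 28 and 3006 for the pathway and all genes. With 1 library left out the ranges were 0 to 7, 0 to 42 and 25 to 4092. In treated against young controls (9, 43 and 4222), fitting only these groups gave 3, 18 and 1041, the 7 libraries 3, 18 and 1794, a threshold of 0.1 gave 6911 of all genes, and the ranges were 3 to 9, 20 to 57 and 1775 to 6086. In aged against young controls 1, 6 and 424 were called. DESeq2 gave 17 and 949 for the pathway and all genes there, and limma-voom gave 2, 33 and 2031. Fitting only these groups gave 28 and 1239 for the pathway and all genes, and the 7 libraries gave 11 and 612. A threshold of 0.1 gave 14 and 677, and the ranges were 1 to 1, 1 to 19 and 73 to 688. With the replicate block, treated against aged controls gave 0 of the 10 genes (8 at an unadjusted p under 0.05), 6 pathway genes and 317 of all genes. Libraries of the same number correlated by -0.0795 to 0.148, within the range of those of different numbers, -0.298 to 0.251. With 3 libraries a group these values cannot settle whether the numbers pair the samples, and the labels do not say.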

Other observations

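Across the 9 libraries, the 3 genes with the most similar pattern to each member were found among 19486 genes with a mean of at least 1 CPM, by the root mean squared difference of log2 CPM centred on each gene's own mean. For Nfkb1, which itself varied by 0.402 on that scale, they were Nup98 (0.0546), Itpkc (0.0602) and Rps6ka3 (0.0722). For Rela, with a spread of 0.217, they were Aste1 (0.0358), the kinase gene Tbk1 (0.0377) and Gm29975 (0.0468). For Nfkb2, with a spread of 0.290, they were the prostaglandin receptor gene Ptger4 (0.0387), Tgfbr1 (0.0483) and Gm32435 (0.0727). For Relb, with a spread of 0.264, they were LOC118567342 (0.0759), Hs6st1 (0.0933) and Senp2 (0.0938). For Nfkbia, with a spread of 0.363, they were Rock2 (0.0604), Picalm (0.0631) and Wwtr1 (0.0641). For Tnfaip3, with a spread of 0.624, they were Cyp1b1 (0.124), Stat3 (0.129) and Pfkfb3 (0.140), a regulator of glycolysis.

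The cytokine genes and Acod1 had other neighbours. For Il18, with a spread of 0.354, the closest were Gm34632 (0.0678), A530072M11Rik (0.0813) and Lbh (0.0869). For Il1b, with a spread of 0.482, they were Arrdc4 (0.140), Neurl3 (0.141) and the kinase gene Lyn (0.145). For Tnf, with a spread of 0.701, they were Ly6c2 (0.258), a marker of monocytes, the interferon-induced gene Ifi44 (0.316) and Cd48 (0.350). Among the genes compared, which left out the overlapping gene Gm41235 at under 1 CPM, Acod1 had no close neighbour. With a spread of 1.66, the nearest were the immunoglobulin gene Igkc (0.845) and the MHC class Ib genes H2-Q7 and H2-Q9 (0.883 each), close copies of each other. These are descriptions over 9 libraries of 3 groups, in which a shared group difference is enough to bring patterns together.

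Receptors of interleukin-18 showed other levels than Il18. Il18r1 averaged 3.72 ± 0.307 CPM in treated samples, 3.53 ± 0.207 CPM in aged controls and 0.987 ± 0.698 CPM in young controls, and rose between treated and young controls (1.90 ± 0.50, adjusted p = 0.0316 in edgeR's test). Il18bp, the soluble antagonist of interleukin-18, had 26.0, 25.9 and 26.2 CPM in treated libraries, 25.1, 24.5 and 24.5 CPM in aged controls, and 18.4, 22.01 and 20.6 CPM in young controls (treated over young controls 0.35 ± 0.09, adjusted p = 0.0263). Il18bp overlaps Rnf121 on the same strand. The calls of Il18r1 and Il18bp were kept in 3 and 4 of 9 fits that leave out 1 library. Both genes were chosen after their values were seen.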
